A study of Mus musculus with 2 samples.

Results

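The transcripts described here encode the machinery of the cytoskeleton: actin and the proteins that nucleate, cross-link and anchor its filaments, the myosins that pull on them, tubulins, the proteins that bind microtubules, and the kinesin and dynein motors that walk along them. Members were chosen by gene symbol alone, as every listed gene whose symbol begins with a family name such as Myo, Myh, Act, Fln, Kif, Dync, Tub, Spt, Tpm or Pdlim, or equals a single name such as Vim, Dst or Pxn. The rule itself used no measured value, though it was set with earlier results of these data known. It took 62 of the 3134 genes in the deposited table. Because the prefixes are broad, the 62 include 3 gamma-tubulin complex genes, which are not tubulins, and Micall2, a relative of the MICAL oxidases.

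Actin filaments and microtubules are polar polymers that grow and shrink from their ends, and motors use ATP to move along them. In fibroblasts, bundles of actin and nonmuscle myosin II form stress fibres that end at focal adhesions, where talin, paxillin and tensin tie them to integrins. These proteins act mostly in the cytoplasm, whereas HP1 alpha is a chromatin protein of the nucleus that binds methylated histone H3 and also RNA.

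RNA associated with HP1 alpha was measured by eCLIP in NIH3T3 cells, an established mouse fibroblast line grown without any treatment. In eCLIP, ultraviolet light (254 nm, 400 mJ/cm2) links proteins to the RNA they touch, RNase trims that RNA, and the complex is pulled down and cut from a membrane, here in a region that the labels place 75 kDa above the HP1 alpha band. There were 2 groups of 1 library each, the pulldown with the HP1 alpha antibody and a control labelled as having no antibody, called input below. The table's own headings call the cells MEF and the control mock. Every value below therefore rests on 1 library per group, and no difference could be set against a spread between replicates. Each gene has a read count in both libraries, and its ratio is its share of the HP1 alpha library's listed counts over its share of the input's. Each ratio carries an exact 95% interval from the split of its reads between the libraries, which covers counting error only and treats every read as a separate molecule. Genes were listed where the larger count was at least 100, and the listed counts sum to 513965 for HP1 alpha and 830031 for input.

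The cells showed the marker genes of fibroblasts. Of 10 fibroblast markers, 8 were listed, with 6033 HP1 alpha counts and 12158 input counts. None of the 14 skeletal and cardiac muscle markers, 5 smooth muscle markers, 4 epithelial, 4 endothelial or 5 immune markers was listed, and of 6 neuronal markers only Map2 was. A gene that is not listed is not shown to be at 0. The conventional myosins listed were the nonmuscle heavy chains Myh9 and Myh10 and the light chains Myl9 and Myl12a. RefSeq holds 204 protein-coding genes that fit the symbol rule. Both spectraplakins, all 4 tropomyosins with caldesmon and vimentin were listed, against 10 of 38 kinesins, 8 of 25 unconventional myosins and neither dystrophin nor utrophin. The genes that fit the rule and were not listed were not analysed here.

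As a set, the cytoskeletal transcripts were recovered with HP1 alpha much as listed genes in general were. They held 3.77% of the HP1 alpha counts (3.72 to 3.83, exact binomial) and 3.94% of the input counts (3.90 to 3.98), a ratio of 0.957 (0.94 to 0.975). Their median log2 ratio was -0.17, against -0.21 over all listed genes. A gene was called higher when its ratio exceeded 2 and its interval lay above 1, and lower when its ratio was under 0.5 with an interval below 1. Of the 62, 1 was higher, Ank3, against 2.36% of all listed genes. None was lower, against 0.83%, and with 1 library per group there is no p-value for either count. On the weaker rule that the interval lies above 1, 11 members (17.7%) passed, against 15.4% of listed genes. The interval lay below 1 for 26 members (41.9%), against 32.6%. Neither rule was met by 25.

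**Figure D1:**
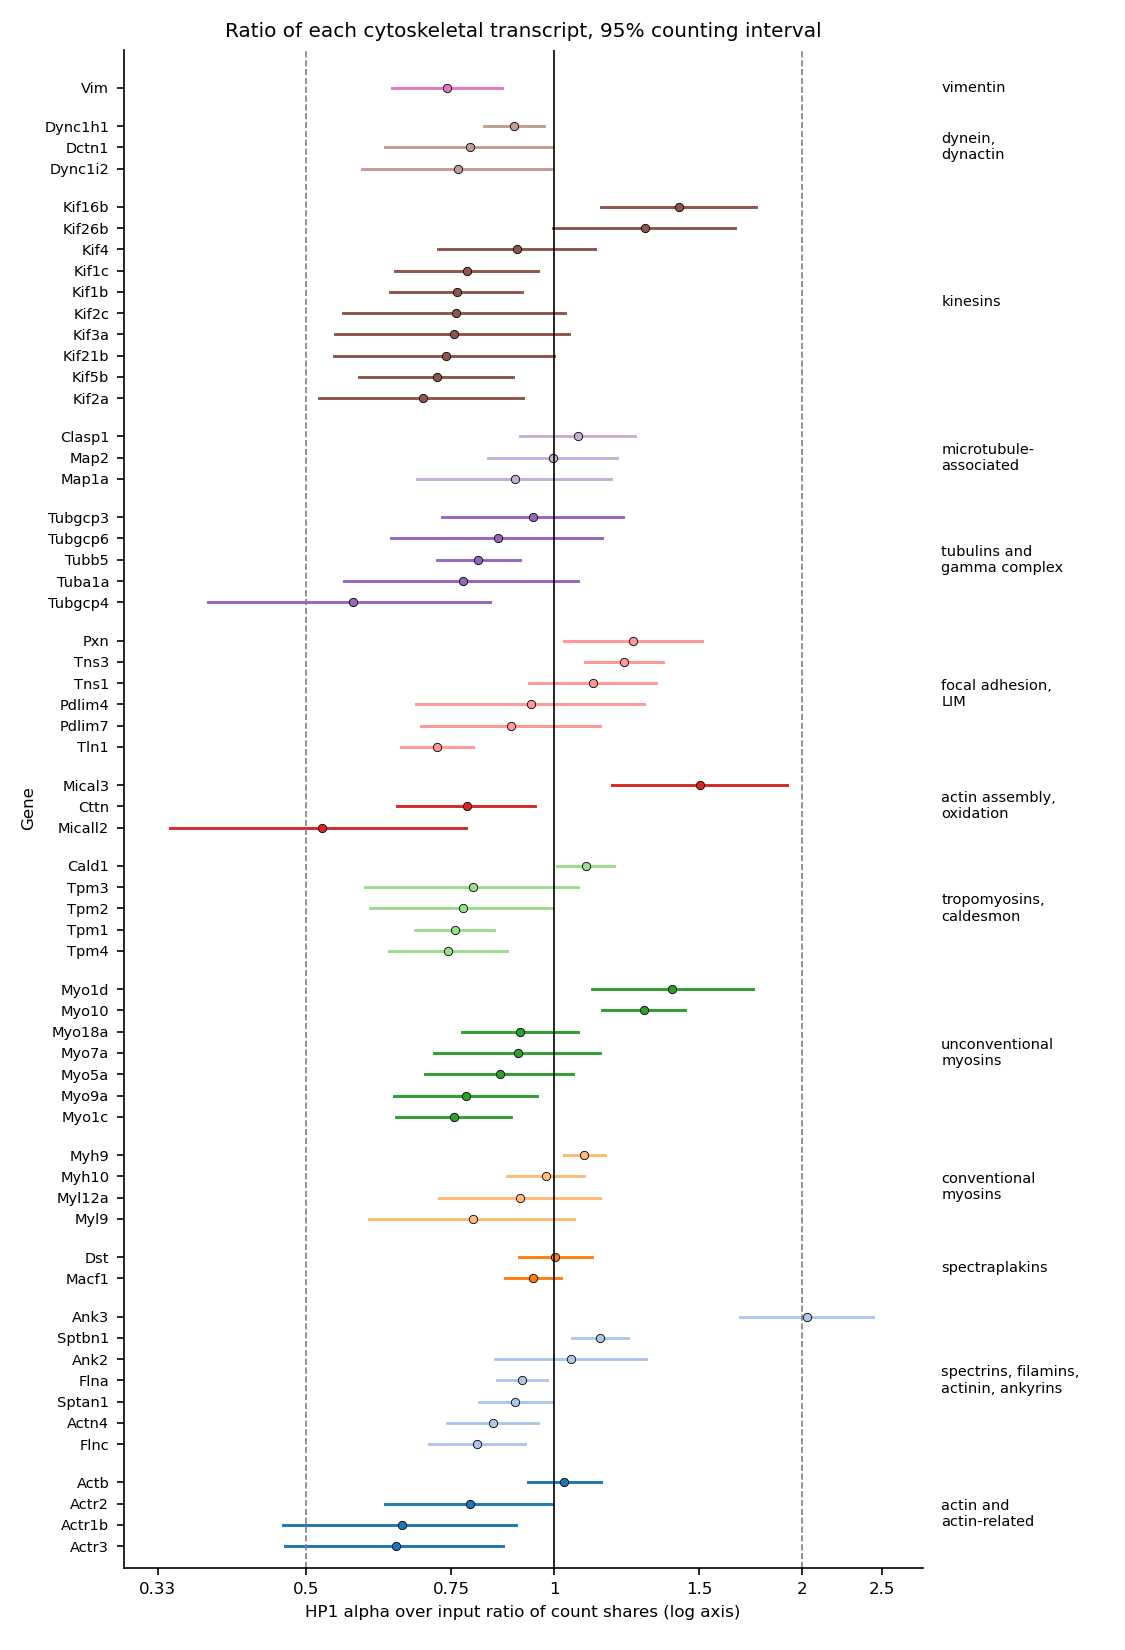
Each point is the HP1 alpha over input ratio of 1 gene (log axis) and each bar its 95% counting interval, with 60 of the 62 genes drawn, grouped by role. The solid line marks a ratio of 1 and the dashed lines mark 0.5 and 2. Ank3 alone lies past 2, at 2.02, and Micall2 is lowest at 0.522.

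The scale on which these ratios are read matters for the set. Scaling both libraries with edgeR's TMM factors adds 0.20 to every log2 ratio, and the number of members with an interval below 1 then drops to 6, against 13.7% of listed genes, while the number above 1 becomes 17, against 23.3%. The members' median turns to 0.03. Every alternative scaling tried raises every ratio, so the 11 members above 1 had to stay above it under all 5 scalings. Of the 26 below 1, 5 stayed below under all 5: Micall2, Tubgcp4, Tln1, Tpm1 and Vim. With DESeq2 factors, which raise the ratios most, 12.4% of all listed genes lay below 1. For Micall2 and Tubgcp4 the listing limit admits their low HP1 alpha counts only with a ratio below 1. Ratios close to 1 are therefore given below as values, and differences between genes, which do not depend on the scaling, are given separately.

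The spectrin, filamin, actinin and ankyrin networks, which cross-link actin beneath the membrane, held the highest ratio of the 62. Ank3 encodes ankyrin-G, the adaptor that fastens ion channels and adhesion proteins to the spectrin skeleton. It had 262 counts with HP1 alpha and 209 in the input, so it was the only member whose raw count was larger in the HP1 alpha library. The ratio came to 2.02 (1.68 to 2.44) and exceeded that of 97.7% of listed genes. The fold in the authors' deposited table is 2.08. Ank3 (ENSMUSG00000069601.9) spans 494 kb on chromosome 10, from 69533486 to 70027436 in GRCm38.p6. Its paralogue Ank2, which encodes ankyrin-B, spans 579 kb and had 150 and 231 counts, a ratio of 1.05 (0.848 to 1.29). Both genes are among the longest members, yet they differed by 1.93-fold (1.45 to 2.56).

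Filamins are rod-like dimers that join actin filaments into gels. Flna was the second most abundant member, with 1260 counts against 2229, for a ratio of 0.913 (0.851 to 0.979), which moved above 1 with TMM and DESeq2 factors. Flnc, known best from muscle, had 333 against 667 and 0.806 (0.705 to 0.921). The interval of Flna over Flnc, 0.974 to 1.32, included 1. Flna and Flnc span 26.4 and 28.7 kb.

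Spectrin is a tetramer of alpha and beta chains, so its subunit genes were compared as a pair. Sptan1, the alpha chain, had 582 and 1048 counts, for a ratio of 0.897 (0.809 to 0.993). Sptbn1, the beta chain, had 1071 and 1521 counts, for a ratio of 1.14 (1.05 to 1.23), 1.27-fold above its partner (1.11 to 1.44). Sptbn1 spans 169 kb and Sptan1 65.9 kb. Relative to genes of like span, Sptbn1 had 0.921 (0.851 to 0.996) and Sptan1 had 1.00 (0.906 to 1.11), so the order did not hold there. Actn4, an alpha-actinin that bundles filaments, had 374 against 717 and 0.842 (0.741 to 0.956). In this group of 8 genes, 3 had intervals above 1 and 4 below 1, against 15.4% and 32.6% of all listed genes.

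The spectraplakins are giant linkers that hold actin and microtubules together. Macf1 had 1022 counts with HP1 alpha and 1753 in the input, a ratio of 0.942 (0.871 to 1.02). Dst, or dystonin, had 613 and 987, a ratio of 1.00 (0.905 to 1.11). They did not separate, with a difference of 1.07-fold (0.936 to 1.21), and neither separated from 1.

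Actin itself was close to 1. Actb, the cytoplasmic beta-actin gene, had 619 counts with HP1 alpha and 972 in the input, a ratio of 1.03 (0.928 to 1.14). Over its span of 4.86 kb this was 127 and 199.9 counts per kb, against 0.53 and 0.42 counts per kb for Ank3. The actin-related proteins lay lower. Actr3 and Actr2 are the Arp3 and Arp2 subunits of the Arp2/3 complex, which starts branched filaments. Actr3 had 62 against 156 counts and 0.642 (0.470 to 0.867), and Actr2 had 110 against 225 and 0.790 (0.623 to 0.996). Actr1b, an Arp1 form found in dynactin, had 55 against 136 and 0.653 (0.469 to 0.900). Its HP1 alpha count is under 62, and at the listing limit such a gene is listed only with a ratio below 1. Beta-actin has close paralogues and processed pseudogenes, so its count may hold or lack reads of near-identical copies, and the same applies to the tubulins, Myl12a and the tropomyosins.

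Myosin II, the contractile motor of stress fibres, is built from 2 heavy chains with their light chains. Myh9, the heavy chain of nonmuscle myosin IIA, was the most abundant member of all, with 1975 counts against 2932, for a ratio of 1.09 (1.03 to 1.15). Myh10, the IIB heavy chain, had 547 against 905 and 0.976 (0.876 to 1.09). Myh9 over Myh10 was 1.11 (0.986 to 1.26), so the 2 heavy chains could not be told apart at this depth. The regulatory light chain genes Myl9 and Myl12a had 75 against 152 and 125 against 222 counts, with ratios of 0.797 (0.596 to 1.06) and 0.909 (0.724 to 1.14).

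**Figure D2:**
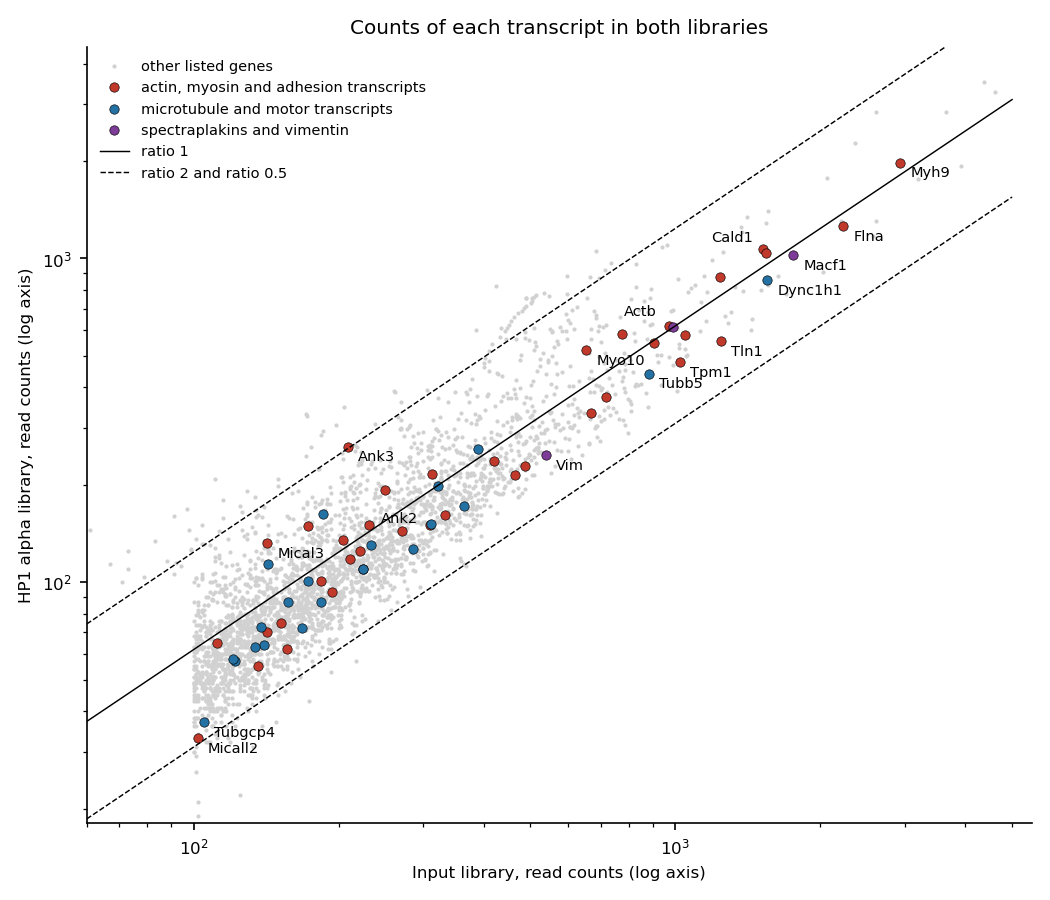
Counts of each gene in the input (x axis) and HP1 alpha library (y axis), both on log axes, with other listed genes in grey. The solid line is a ratio of 1 and the dashed lines are 2 and 0.5. The members run from Micall2 (102 and 33 counts), near the lower dashed line, to Myh9 (2932 and 1975), near the solid line, and Ank3 sits on the upper dashed line.

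The unconventional myosins, which move membranes and organelles or link them to actin, ranged from 0.755 to 1.39. Myo10, the filopodial myosin, had 520 against 654 counts and 1.28 (1.14 to 1.44). Myo1d, a membrane-binding class I myosin, had 149 against 173 and 1.39 (1.11 to 1.74). Myo1c, another class I myosin with both nuclear and cytoplasmic forms, had 228 against 488 and 0.755 (0.642 to 0.885). Myo1d exceeded Myo1c by 1.84-fold (1.39 to 2.44). The gene spans differ in the same order, at 298 and 24.1 kb. Myo9a had 150 against 310 and 0.781 (0.639 to 0.953). Myo5a, Myo7a and Myo18a had ratios of 0.858, 0.903 and 0.909, with intervals that included 1.

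The 4 tropomyosin genes, whose coiled coils lie along the actin filament and decide which proteins reach it, sat within a narrow band. Tpm1 had 479 against 1021 counts, for a ratio of 0.758 (0.678 to 0.845), and Tpm4 had 214 against 465 and 0.743 (0.629 to 0.876). Tpm2 had 93 against 194 and 0.774 (0.598 to 0.996), and Tpm3 had 70 against 142 and 0.796 (0.589 to 1.07). Summed, they had 856 against 1822 counts, for a ratio of 0.759 (0.699 to 0.823). The largest of the 6 differences between them was 1.07-fold, Tpm3 over Tpm4, with an interval of 0.758 to 1.51. Caldesmon, encoded by Cald1, binds the same filaments and stood above all 4, with 1041 against 1539 counts and 1.09 (1.01 to 1.18). Cald1 spans 177 kb, whereas the tropomyosin genes span 9.86 to 28.3 kb.

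The remaining actin regulators differed most from each other. Mical3 encodes a MICAL oxidase, an enzyme family that dismantles filaments by oxidising actin. It had 132 counts with HP1 alpha and 142 in the input, a ratio of 1.5 (1.18 to 1.92). Micall2, a MICAL-like adaptor that lacks the oxidase domain, had 33 against 102 and 0.522 (0.342 to 0.780), the lowest ratio of the 62. They differed by 2.87-fold (1.78 to 4.70), the widest gap of any pair compared. Micall2 lies just inside the listing limit, which only admits such a low HP1 alpha count with a ratio below 1. Cttn, or cortactin, a stabiliser of branched actin, had 161 against 332 and 0.783 (0.645 to 0.948).

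At focal adhesions the members diverged too on the plain ratio. Tln1 encodes talin 1, the protein that switches integrins on and pulls them to actin. It had 555 counts against 1243 in the input and a ratio of 0.721 (0.651 to 0.798). Tns3, a tensin, had 583 against 774 and 1.22 (1.09 to 1.36), so a similar HP1 alpha count came with far fewer input counts. Tns1 had 216 against 313 and 1.11 (0.933 to 1.33). Pxn, or paxillin, the scaffold of the adhesion plaque, had 193 against 250 and 1.25 (1.03 to 1.51). Pxn stayed high relative to genes of like span, at 1.43 (1.18 to 1.73). The PDZ and LIM genes Pdlim7 and Pdlim4 had ratios of 0.886 and 0.937, with intervals that included 1. Vim, whose intermediate filaments mark mesenchymal cells, had 247 against 538 and 0.741 (0.635 to 0.864).

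The microtubule and motor genes had a lower median than the actin side. Their 21 transcripts had a median log2 ratio of -0.34 and a summed ratio of 0.872 (0.836 to 0.909), with 1 interval above 1 and 10 below. The 38 actin, myosin and adhesion transcripts had a median of -0.14 and a summed ratio of 0.985 (0.965 to 1.01), with 10 above and 15 below. Over all listed genes 15.4% lay above and 32.6% below. These sums weight abundant genes most, and the median spans of these sets were 46.6 and 65.0 kb. Fewer than 100 HP1 alpha counts were held by 9 of the 21 microtubule and motor genes and 7 of the 38 others. Those genes were listed through their input counts, and the weight of this on the medians was not tested. Relative to genes of like span, the median log2 values were -0.12 for the microtubule and motor side and -0.056 for the actin side, a smaller gap.

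The microtubule itself is a tube of alpha and beta tubulin. Tubb5, a beta tubulin, had 441 against 881 counts and 0.808 (0.719 to 0.907), and Tuba1a, an alpha tubulin, had 58 against 121 and 0.774 (0.556 to 1.07). The gamma-tubulin complex is the ring from which microtubules grow. Tubgcp3 and Tubgcp6 had 0.943 (0.730 to 1.21) and 0.854 (0.634 to 1.14), and Tubgcp4 had 37 against 105 counts and 0.569 (0.380 to 0.835). Tubgcp3 exceeded Tubgcp4 by 1.66-fold (1.04 to 2.67), while Tubgcp6 over Tubgcp4 had an interval of 0.916 to 2.48. The HP1 alpha counts of Tubgcp4 and Tuba1a are under 62, and at the listing limit such genes are listed only with a ratio below 1. Tubgcp4 and Map1a each overlap Trp53bp1 in the annotation, whose counts were 97 and 165 with a ratio of 0.949 (0.731 to 1.23), and strand was not stated, so reads there may be shared. Of the microtubule-associated proteins, Map1a and Map2, both best known from neurons, had 0.895 (0.681 to 1.17) and 0.996 (0.830 to 1.19). Clasp1, which stabilises growing plus ends, had 258 against 390 counts and 1.07 (0.909 to 1.25).

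Kinesins carry cargo or, in the kinesin-13 family, take microtubule ends apart. Of the 10 listed, 5 had intervals below 1 and 1 above, against 32.6% and 15.4% of all listed genes, and none of the 5 below stayed below under all 5 scalings. Kif5b, the conventional kinesin-1 motor, had 127 against 285 counts and 0.720 (0.579 to 0.890). The kinesin-13 genes Kif2a and Kif2c had 0.692 (0.518 to 0.917) and 0.759 (0.554 to 1.03). Kif3a, a motor of cilia, had 0.755, Kif21b had 0.738 and Kif4, a chromosome-associated kinesin, had 0.901, from 57, 64 and 130 HP1 alpha counts. The kinesin-3 family split on the plain ratio. Kif16b, which moves early endosomes, had 163 against 186 counts and 1.42 (1.14 to 1.76). Kif1b and Kif1c had 172 against 365 and 151 against 311 counts, with 0.761 (0.631 to 0.915) and 0.784 (0.641 to 0.955). Kif16b exceeded them by 1.86-fold (1.39 to 2.48) and 1.80-fold (1.34 to 2.43). Kif16b spans 283 kb, Kif1b 131 kb and Kif1c 31.6 kb. Relative to genes of like span, Kif16b had 1.03 (0.829 to 1.28) and Kif1c had 0.991 (0.810 to 1.21). On that scale Kif1b had 0.723 (0.600 to 0.869). Kif26b had 114 against 143 counts and 1.29, with an interval from 0.998 to 1.66 that just included 1.

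The 3 listed genes of cytoplasmic dynein, the motor towards the minus end, and its cofactor dynactin had intervals below 1. They are 3 of 13 genes that fit the symbol rule, and over all listed genes 32.6% had intervals below 1. Relative to genes of like span, their median log2 value was -0.013. The heavy chain gene Dync1h1 had 857 against 1550 counts and 0.893 (0.82 to 0.971), which also moved above 1 with TMM and DESeq2 factors. The intermediate chain gene Dync1i2 had 87 against 184 and 0.764 (0.585 to 0.991). Dctn1, the largest dynactin subunit, had 110 against 225 and 0.790, the same counts as Actr2 on another chromosome. The heavy over the intermediate chain was 1.17 (0.888 to 1.55).

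Within families, differences between genes were compared directly as ratios of ratios, each with an exact interval. Of 26 pairs in 17 families, 7 had an interval that excluded 1. In 6 of these 7 the gene of longer span had the higher ratio, and the exception was Ank3 over Ank2. In 2 of the 6, the lower gene is Micall2 or Tubgcp4, whose ratio below 1 is fixed by the listing limit. Over all 26 pairs the longer gene was higher in 17. For the 19 pairs that did not separate the intervals included 1, which does not show that the paralogues behave alike. The intervals are not adjusted for the number of pairs.

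**Figure D3:**
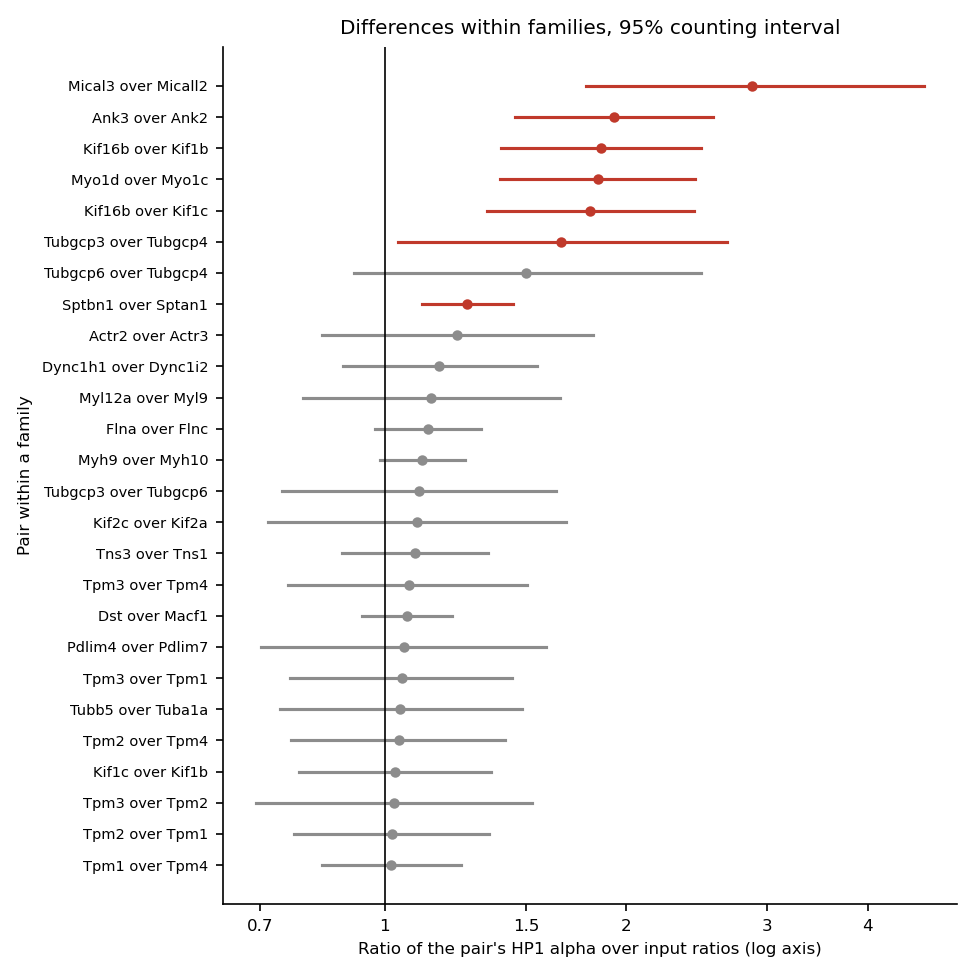
Each point is the ratio of the HP1 alpha over input ratios of 2 genes of 1 family (log axis), higher over lower, and each bar its 95% counting interval. Red pairs, 7 of 26, have intervals that exclude 1. Mical3 over Micall2 is largest at 2.87 and the tropomyosin pairs crowd near 1.

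Gene span, the distance from first to last annotated base with introns, moved with the ratio among the members as it did elsewhere in the table. Over the 62 members the log2 ratio and span had a Spearman correlation of 0.63, and a Pearson's r of 0.61 on log10 span. Over 3027 other genes the values were 0.61 and 0.60. These are descriptions across genes of the same 2 libraries. Among the 46 members with at least 100 counts in both libraries the Spearman correlation was 0.68. Of the 11 members with intervals above 1, 9 spanned at least 100 kb, and Pxn and Myh9 were the exceptions at 64.0 and 81.6 kb. Of the 26 below 1, only Kif1b and Myo9a did. The median ratio was 0.797 for 7 members up to 10 kb, 0.778 for 14 between 10 and 30 kb, 0.764 for 11 up to 60 kb, 0.901 for 9 up to 120 kb, 1.08 for 12 up to 240 kb and 1.29 for 9 above that. The other genes of those bands had medians of 0.726, 0.774, 0.822, 0.930, 1.16 and 1.46. Members up to 10 kb thus had a higher median than their band, and members over 30 kb a lower one in each of the 4 longer bands.

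To read each member against genes of its own length, its ratio was divided by the median ratio of the 200 listed genes nearest in span, a step that also cancels the library scaling. The interval then lay above that median for 6 members (9.68%), against 15.4% of the 3089 genes with a known span. It lay below for 11 members (17.7%), against 11.8%. The 6 above were Pxn at 1.43 times its span median (1.18 to 1.73), Actb at 1.41 (1.28 to 1.56), Ank3 at 1.4 (1.16 to 1.69), Myl12a at 1.28 (1.02 to 1.61), Myh9 at 1.22 (1.16 to 1.30) and Flna at 1.14 (1.07 to 1.23). None reached 2-fold on this scale, Ank3 included.

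The 11 below were long genes with 1 exception, Micall2. Macf1 and Dst, with spans of 338 and 401 kb, had 0.670 (0.620 to 0.724) and 0.704 (0.636 to 0.780) times the median of genes of their span. Ank2 had 0.723 (0.584 to 0.891), Map2 had 0.731 (0.610 to 0.876), Kif1b had 0.723 (0.600 to 0.869), Myo5a had 0.753 (0.611 to 0.925) and Myo9a was lowest at 0.629 (0.514 to 0.767). Clasp1, Cald1 and Sptbn1 were nearer, at 0.822, 0.882 and 0.921. Of the 23 members of at least 100 kb, 10 (43.5%) lay below their span median and 1 above, Ank3, against 21.4% below and 24.7% above over all 781 listed genes of that length. Their median was 0.901 times the span median, against 1.02 for 758 other long genes. Deeper genes have narrower intervals, and these members had a median of 529 summed counts against 452. Among long genes with at least 400 summed counts, 9 of 16 members lay below, against 25.1% of 431 others. That these are particular to the cytoskeleton was not tested.

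**Figure D4:**
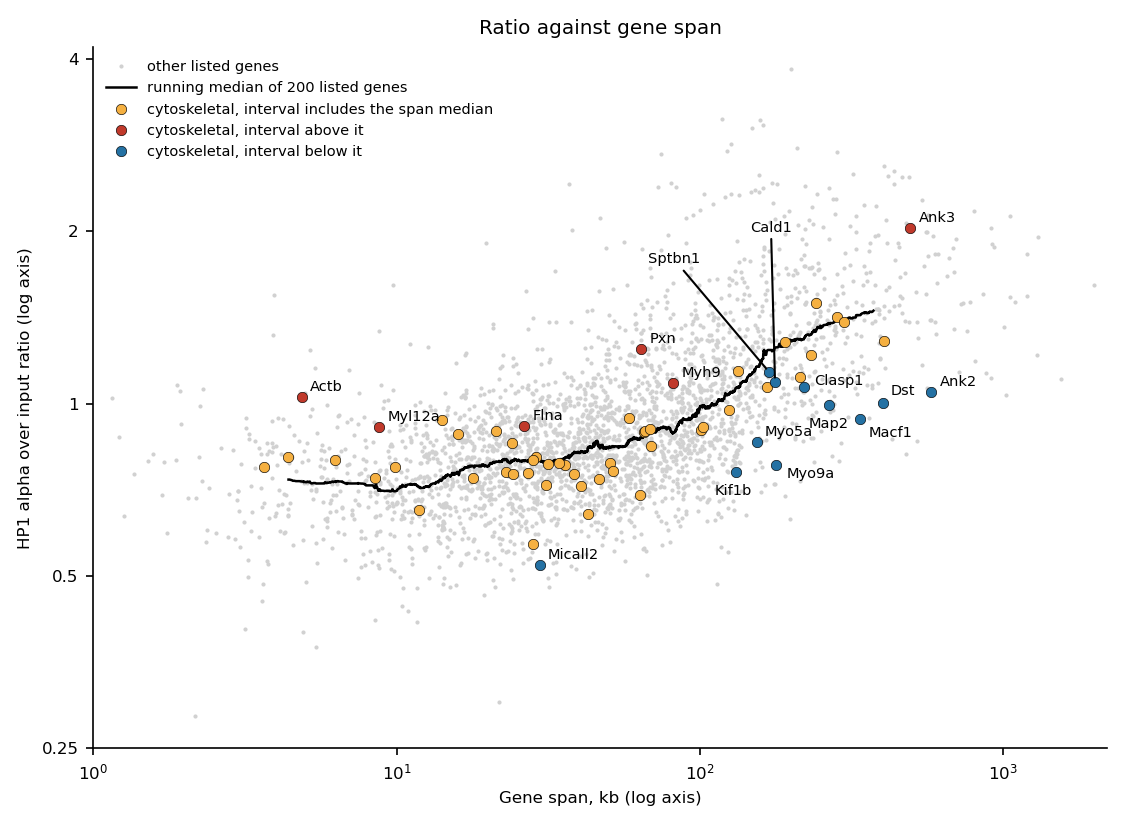
HP1 alpha over input ratio against gene span in kb, both on log axes, with other listed genes in grey and a running median of 200 listed genes in black. Coloured points are the 62 cytoskeletal genes: red have intervals above the median of the 200 genes nearest in span (6), blue below it (11). Most blue points lie at the long end, among them Macf1, Dst and Ank2, while Ank3 lies above the line.

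Partners of these genes that the symbol rule does not take were read from 4 lists. Of 43 genes for actin assembly and turnover, 24 were listed, 5 with intervals above 1 and 7 below. The shares over all listed genes, against which these counts and those of the other lists are read, were 15.4% and 32.6%. Capzb, the beta subunit of the filament capping protein, was highest of these at 1.57 (1.36 to 1.81), and Vasp, an actin elongation factor, was lowest at 0.661 (0.456 to 0.943). Integrin adhesion had 10 of 20 listed, 1 above and 4 below, from Parva, or alpha-parvin, at 1.55 to the integrin gene Itgav at 0.656. Microtubule regulators and motor adaptors had 16 of 36 listed, 2 above and 5 below, from Camsap1, a minus-end binding protein, at 1.35 to Numa1, a spindle pole protein, at 0.686. A list of septins, together with intermediate filament and related genes other than Vim, had 7 of 17 listed, 2 above and 2 below. In these 4 lists no gene was higher or lower by the 2-fold rule, against 2.36% and 0.83% of all listed genes. The median log2 ratios ran from -0.20 to -0.07, beside -0.17 for the members and -0.21 for all listed genes. Relative to genes of like span, the medians of the 4 lists ran from -0.042 to 0.13. The members had -0.071 and all listed genes 0.005 on that scale.

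The listing limit bears on the low end. No member had fewer than 100 counts in the input, and 16 had fewer with HP1 alpha, 8 of them among the 26 with intervals below 1. For 5 members, Actr1b, Kif3a, Micall2, Tuba1a and Tubgcp4, the limit itself fixes a ratio below 1.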

How the data were processed

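The members and lists were chosen with earlier results of these data known. The authors deposited 1 table of read counts per gene for the HP1 alpha library and the input, with a fold. The counts are raw, as whole numbers that sum to different totals. The deposited fold is the count ratio times 1.66, which per the file headers stands for total mapped reads. STAR 2.6.0c, featureCounts and GRCm38 are named in the submitters' processing notes. The sources used here do not give the strand, the duplicate removal or whether introns were counted. Columns of other samples numbered 0.

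Counts were divided by each library's listed total. Intervals are Clopper-Pearson at 95%, from scipy 1.17.1, and ratios of ratios use the conditional exact interval. Log2 ratios add 0.5 counts. The minimum summed count was 20, which removed no gene. Spans came from RefSeq GRCm38.p6, where all 62 members matched by symbol. Scaling alternatives used edgeR 4.0.16 and DESeq2 1.42.0. Full values are given for members called higher or lower, the 10 highest and 10 lowest by the interval bound nearest 1, the 8 most abundant and the most abundant of each role group, 29 genes in all, and shorter values for the rest. Of the 62 members, 2 are counted in the totals but not reported singly here, nor compared within families, and 1 of the 29 is among them. Another list of partner genes is not reported here. The comparisons within families, the 100 kb split and the minimum of 400 summed counts were chosen after values were seen.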

Additional observations from a re-analysis of the deposited data

How the results depend on the processing

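No paired analysis was possible because there was a single library of each kind. The 1 higher member became 0 where the larger count had to reach 400 (22 members left) and when read against the 200 genes nearest in span, and 2 at 1.5-fold. The 0 lower members became 4 at 1.5-fold, Micall2, Tubgcp4, Actr3 and Actr1b. Of these, the listing limit itself fixes a ratio below 1 for Micall2, Tubgcp4 and Actr1b. The 11 intervals above 1 became 17 with edgeR's TMM factors, 18 with DESeq2 size factors, 6 at a larger count of 400 and 6 relative to span. The 26 below 1 became 6 with TMM, 5 with DESeq2, 11 at a larger count of 400 and 11 relative to span. Over all listed genes, the shares with intervals above and below 1 became 23.3% and 13.7% with TMM, and 23.9% and 12.4% with DESeq2. The shares over all listed genes at 1.5-fold and at a larger count of 400 are not given here. The median of -0.17 turned to 0.031 with TMM and 0.042 with DESeq2, since both shift all log2 ratios by 1 amount. Among the 29 genes chosen for full values, Dync1h1 turned to 0.034 and 0.046 and Flna to 0.066 and 0.078 under TMM and DESeq2, and so did Macf1, whose interval included 1 as reported, from -0.087 to 0.11 and 0.12. Relative to span, the log2 ratio turned to 0.010 for Dync1h1, 0.19 for Flna, 0.15 for Tubb5 and 0.070 for Vim, and to -0.18 for Cald1, -0.12 for Sptbn1 and -0.13 for Tns3. Clasp1, whose interval included 1 as reported, also turned, from 0.096 to -0.28. Under other settings every count stayed within 1.5 times its reported value and the median below 0. These were the authors' constant, the total without the 10 most abundant genes, a pseudocount of 5 and the removal of overlapping members. A minimum of 200 in the larger count and, added after seeing the data, 100 in both did the same. The pseudocount enters only the log2 ratios, so the interval counts could not move with it. Dropping the minimum summed count could change nothing, as it had removed no gene. Members near 100 counts have the widest intervals, up to 2.28 times from lower to upper bound, against a median of 1.5.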
